A study of Tigriopus californicus with 4 samples.

Results

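Cathepsins, legumain, carboxypeptidases and aminopeptidases were followed through acute heat stress in the intertidal copepod *Tigriopus californicus*. Contigs were taken by their product name (cathepsin, cysteine protease or proteinase, carboxypeptidase, aminopeptidase, astacin or legumain, leaving out names with inhibitor, trypsin or a square bracket), which gave 67 of the 20278 San Diego (SD) contigs and 77 of the 20931 Santa Cruz (SC) contigs in the deposited values. No contig was named astacin. The SD and SC members carried 38 and 46 distinct product names, of which 26 were found in both populations.

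Each population gave 1 control library and 1 heat stress library. Copepods were held for 1 h at 20°C (control) or 35°C (heat stress) and then recovered for 1 h at 20°C, and RNA was taken from a pool that the labels put at 300 to 400 animals of all developmental stages. SC is labelled SCN in the sample titles and contig names. With 1 library per condition there is no replicate check on any difference, and calls compare 2 libraries rather than 2 conditions. Both controls were run in one lane and both heat stress libraries in the adjacent one, so an effect of the lane and an effect of heat stress cannot be told apart. Pools of whole animals also leave fewer cells of a type and less RNA per cell as states that cannot be told apart.

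Cathepsins B and L are cysteine proteases of the papain family that break down protein in lysosomes, and in crustaceans and many insects they also act in the gut. Cathepsin D is an aspartic protease of the lysosome, and legumain is a cysteine protease that cuts after asparagine and processes other lysosomal proteases. Carboxypeptidases and aminopeptidases remove residues from the C-terminal and N-terminal ends of peptides, and in arthropods carboxypeptidases A and B and aminopeptidase N are known as digestive enzymes. The name rule also takes in enzymes with other roles, such as methionine aminopeptidases, which trim the first methionine of new proteins, carboxypeptidases D and E, which process prohormones, and Atg4, which acts in autophagy. Cathepsin L-associated protein was taken in by the word cathepsin, although this name is not that of a protease. Since whole animals were used, a digestive source was not measured for any contig.

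Values are RPKM, reads scaled by contig length and by the library's reads, so that levels can be set side by side between contigs of a library. The reads behind each value were recovered as the smallest whole numbers that give both RPKM values of a contig, and fold changes (heat stress over control RPKM) carry exact 95% intervals of these reads, which cover counting error only. The totals to which the RPKM values are scaled came out at 1947203 (control) and 5583124 (heat stress) reads in SD and at 3256758 and 4948622 reads in SC. The median member had 61 control reads in SD and 76 in SC. Names marking other processes served as a check of the libraries: of 49 contigs named for heat shock in each population, 19 were called higher and 0 lower in SD and 18 higher and 4 lower in SC. Of the cuticle names, which mark moulting, 19 of 59 were called higher and 1 lower in SD, while 0 of 48 were called higher and 11 lower in SC. Names of vitellogenin, which marks egg yolk, were counted together with apolipoprotein names, which need not. Of these, 0 of 34 were called higher and 5 lower in SD, and 11 of 19 higher and 1 lower in SC. The part of moulting or of egg-bearing females in the protease values was not tested.

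In SD the median protease lay near its control level, while single contigs differed in both directions. The median log2 fold change was 0.01 (95% interval of the median −0.07 to 0.15) beside −0.03 over all contigs. By Kal's Z-test on RPKM shares, at a Bonferroni adjusted p of at most 0.10 over all contigs, 0 members were called in either direction, where the test called 2.59% of all SD contigs. At an unadjusted p under 0.05 the same test passed 8 members, or 11.9%, beside 12.9% of all contigs. The same test on recovered reads called 1 member higher, a cathepsin L, and 1 lower, a carboxypeptidase E, which is 2.99% of the members beside 3.21% of all contigs (1.4% higher and 1.8% lower). With the Benjamini-Hochberg adjustment at 0.05 the test on RPKM shares called 1 member higher and 0 lower, beside 3.57% and 2.68% of all contigs. With heat stress RPKM divided by the median ratio it called 0 either way, beside 1.45% and 1.19%. The summed RPKM of the members was 3879 in the control and 3985 under heat stress.

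In SC the members had a median log2 fold change of 0.26 (0.02 to 0.47), below the 0.40 of all contigs. Relative to the median contig, whose RPKM ratio was 1.32, the median member therefore stood at −0.14, and where an SC interval excludes 1 but the median scale turns the direction or takes in 1, both are given for the abundant contigs. The same test called 0 members higher and 1 lower, a cathepsin L, where it called 5.54% of all SC contigs, 3.05% higher and 2.49% lower. At an unadjusted p under 0.05 it passed 24 members, or 31.2%, beside 34.5% of all contigs. On recovered reads 6 members were called higher and 7 lower, 16.9% in all beside 17.9% of all contigs (10.9% higher and 7.03% lower). With the Benjamini-Hochberg adjustment 9 were called higher and 6 lower, beside 14.1% and 6.55% of all contigs. With heat stress RPKM divided by the median ratio 0 were called higher and 6 lower, all in the cathepsin L and glutamate carboxypeptidase contigs described below, beside 1.11% and 5.76%. The share called on recovered reads lay near the background.

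Counted by size, 7 SD members were at least 2-fold higher (10.4%, against 9.55% of all contigs) and 0 were at least 2-fold lower (5.42% of all contigs), and relative to the median contig 8 were higher (9.96% of all contigs) and 0 lower (5.06%). In SC 17 were at least 2-fold higher (22.1%, against 28.8%) and 3 at least 2-fold lower (3.9%, against 8.22%). Relative to the median SC contig these became 8 higher (10.4%, against 18.2%) and 7 lower (9.09%, against 16.4%). By intervals that excluded a fold change of 1, a count chosen after the data were seen, 11 SD members were higher (16.4%, against 7.13% of all contigs) and 6 lower (8.96%, against 9.43%), or 12 higher (7.95% of all contigs) and 5 lower (8.38%) relative to the median contig. The same count in SC gave 23 higher (29.9%, against 32.5%) and 16 lower (20.8%, against 17.2%), and relative to the median contig 12 higher (15.6%, against 18.8%) and 29 lower (37.7%, against 27.9%). The higher SD members by interval include SD_Contig46373, SD_Contig70115, SD_Contig53331 and SD_Contig55208, listed at 0 in the control. Their recovered reads are uncertain, as described below. SD_Contig61366, also among them, had 3 control reads and a lower end of 1.01.

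**Figure D1:**
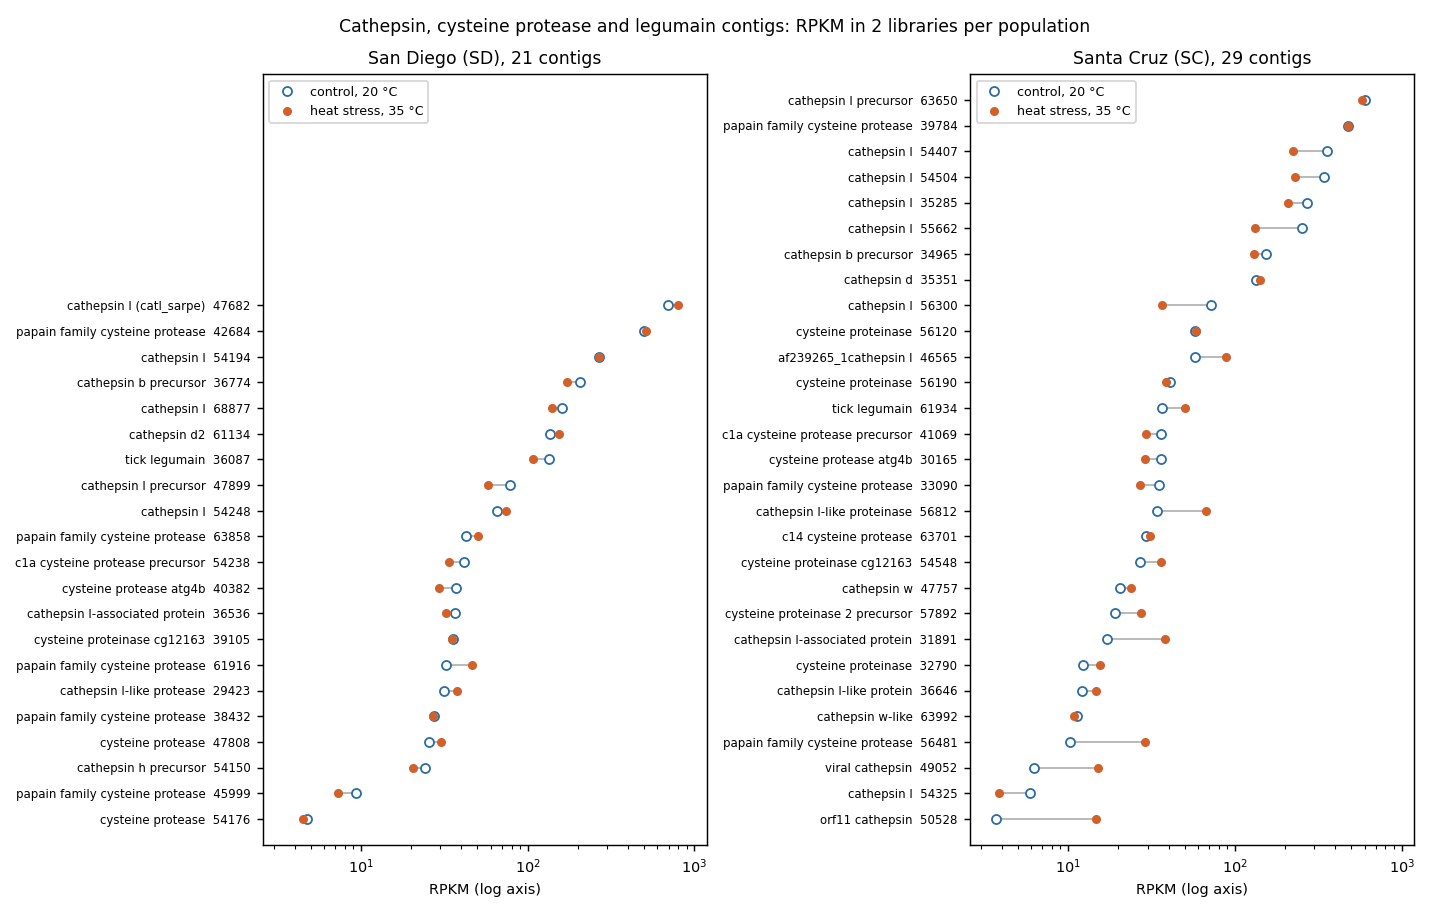
RPKM (log axis) of each cathepsin, cysteine protease and legumain contig in the control (open circles) and heat stress (filled circles) library of SD and SC, with the contig number beside its product name. The SD pairs nearly coincide at high levels, while several SC cathepsin L contigs lie lower under heat stress, the called one at 132 against 251 RPKM.

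The cysteine cathepsins and cysteine proteases were the most abundant members, with 2321 of the 3879 control RPKM in SD and 2996 of 4323 in SC. The highest SD member was a cathepsin L (SD_Contig47682), which ranked 132 among all contigs of the control library and read 698 RPKM in the control and 795 under heat stress. Its fold change was 1.14 (1.08 to 1.20), and the test on recovered reads called it higher although the test on RPKM shares did not. A papain family cysteine protease (SD_Contig42684) followed with 496 and 509 RPKM, a fold change of 1.03 (0.963 to 1.09). These contigs held 1830 and 1288 reads in the control, and their intervals were correspondingly narrow.

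The remaining SD cysteine proteases lay on both sides of 1. The other 1 that was higher by its interval was a papain family protease (SD_Contig61916) with 32.3 and 46.6 RPKM, 1.44-fold (1.05 to 2.02). Cathepsin B (SD_Contig36774), a lysosomal exopeptidase and endopeptidase, read 207 RPKM in the control and 172 under heat stress, 0.832-fold (0.753 to 0.921). Of 2 further cathepsin L contigs above 100 RPKM, SD_Contig54194 read 266 and 269 and SD_Contig68877 read 161 and 139, 0.860-fold (0.761 to 0.974). Cathepsin H (SD_Contig54150), an aminopeptidase-like lysosomal cathepsin, read 24.1 and 20.6 RPKM. Over the 19 contigs of this class, 2 were higher and 2 lower by their interval, beside 7.13% and 9.43% of all SD contigs. The median log2 fold change was −0.03 (−0.26 to 0.19).

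In SC the abundant cathepsin L contigs were lower under heat stress. The called contig, SCN_Contig55662, fell from 251 to 132 RPKM. Its ratio was 0.525 (0.455 to 0.605), or 0.399 (0.345 to 0.460) relative to the median contig. SCN_Contig54407 read 357 and 224 RPKM, 0.627-fold (0.586 to 0.671). SCN_Contig54504 read 342 and 230 RPKM, 0.673-fold (0.637 to 0.711). All of these were below 1 on either scale, as were SCN_Contig35285 with 270 and 209 RPKM, 0.774-fold (0.710 to 0.845), and SCN_Contig56300 with 71.6 and 36.6 RPKM, 0.511-fold (0.357 to 0.727). The test on recovered reads called SCN_Contig55662, SCN_Contig54407, SCN_Contig54504 and SCN_Contig35285 lower.

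Not all SC cathepsin L contigs shared this direction. The highest, cathepsin L precursor SCN_Contig63650, read 603 and 582 RPKM, 0.966-fold (0.920 to 1.01), and was lower only relative to the median contig, at 0.734 (0.699 to 0.771). SCN_Contig46565 was higher, 57.7 against 88.5 RPKM (1.53, 1.33 to 1.77), and so was the cathepsin L-like proteinase SCN_Contig56812, 34.1 against 66.8 RPKM (1.96, 1.37 to 2.85). Both also lay above the median contig, at 1.16 (1.01 to 1.34) and 1.49 (1.04 to 2.16). Of the 10 contigs with a cathepsin L name, 5 were lower and 2 higher by their interval, beside 17.2% and 32.5% of all SC contigs. Their median log2 fold change was −0.47 (−0.93 to 0.62) in SC, beside 0.10 (−0.44 to 0.26) over 6 in SD. At a mean of at least 100 RPKM, 54.9% of all SC contigs were lower and 30.4% higher. Against the median contig 2 of the 10 cathepsin L contigs were higher and 6 lower, beside 18.8% and 27.9% of all SC contigs, with a median of −0.87. Contigs of near-identical paralogs can exchange reads in mapping, so the split between single cathepsin L contigs is uncertain.

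Other SC cysteine proteases spread around these values. The papain family protease SCN_Contig39784 read 475 and 478 RPKM (1.01, 0.95 to 1.07), which was below the median contig, while another, SCN_Contig33090, read 35.3 and 26.9 RPKM (0.762, 0.638 to 0.912) and SCN_Contig56481 of the same name read 10.3 and 29.0 RPKM on 11 and 47 reads (2.81, 1.44 to 6.01). Cathepsin B (SCN_Contig34965) read 153 and 130 RPKM, 0.846-fold (0.764 to 0.938). A C14 cysteine protease (SCN_Contig63701), the peptidase family of the caspases, read 29.3 and 30.9 RPKM. The cathepsin L-associated protein SCN_Contig31891, which does not itself carry a protease name, was counted in the class by the word cathepsin. It was among the 3 highest SC members by the lower end of its interval, with 17.2 and 38.0 RPKM (2.21, 1.77 to 2.78), and was called on recovered reads but not on RPKM shares. Over the 27 contigs of the class, 6 were higher and 8 lower by their interval, beside 32.5% and 17.2% of all SC contigs. The median log2 ratio was 0.01 (−0.31 to 0.43). On the scale of the median contig 4 were higher and 10 lower, beside 18.8% and 27.9% of all SC contigs, with a class median of −0.39.

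Lower medians at high levels were also found over all SC contigs. Among SC contigs with a mean of at least 100 RPKM, the median log2 fold change of all 1502 was −0.29. By their interval 54.9% of these were lower and 30.4% higher. The 9 members at that level had a median of −0.37 (−0.77 to 0.01), and 6 of them (66.7%) were lower and 0 higher. Of the 7 cysteine proteases among them 5 were lower and 0 higher. At 10 to 100 RPKM the members' median was 0.23 beside 0.16 over all contigs, and under 10 RPKM it was 0.95 beside 0.86. In SD the members' medians at the same 3 levels, from low to high, were 0.07, 0.01 and 0.01, beside 0.12, −0.07 and −0.03 over all contigs.

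**Figure D2:**
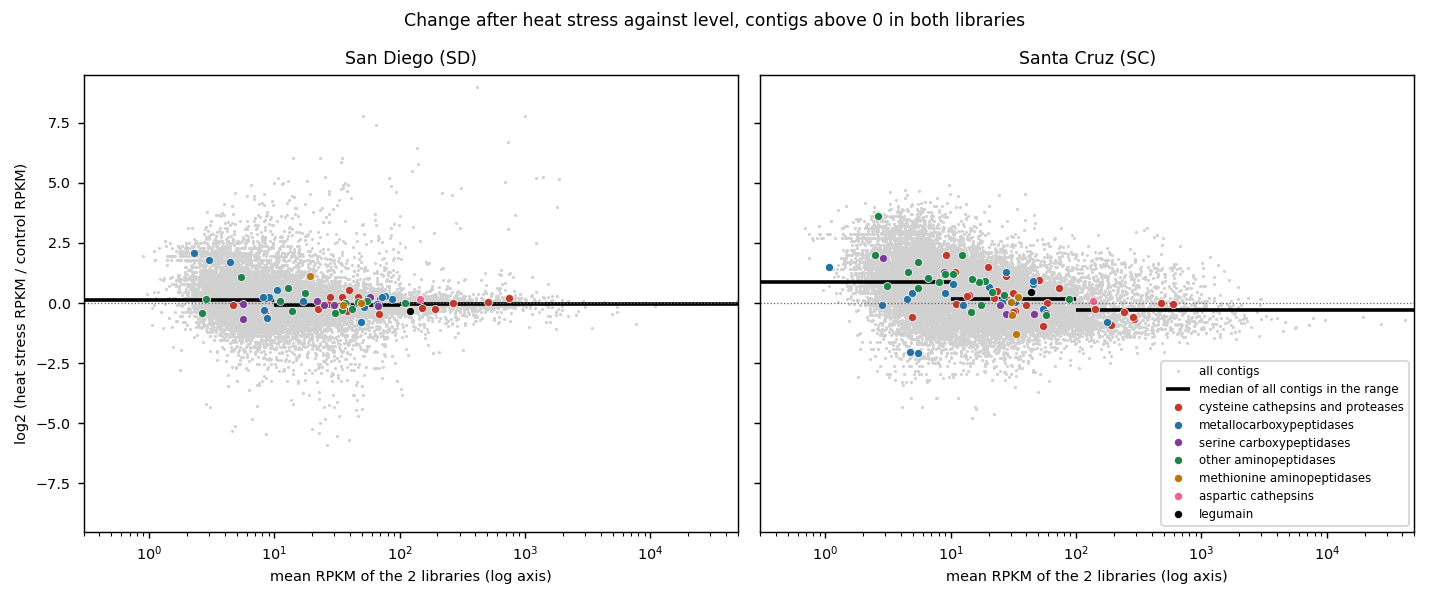
Log2 fold change (heat stress over control RPKM) against the mean RPKM of the 2 libraries (log axis) for all contigs above 0 in both (grey) and for the protease members (coloured by class) of SD and SC, with black lines at the median of all contigs under 10, from 10 to 100 and from 100 RPKM. In SC the cloud tilts from a median of 0.86 under 10 RPKM to −0.29 at 100 RPKM or more, while in SD it is nearly flat. The medians of the SC members tilt the same way.

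Cathepsin D and legumain, the remaining endopeptidases, were each found on 1 contig per population. Cathepsin D2 (SD_Contig61134) read 137 and 155 RPKM in SD, 1.13-fold (1.01 to 1.28), and cathepsin D (SCN_Contig35351) read 133 and 142 RPKM in SC, 1.07-fold (0.958 to 1.18). Both ratios were above 1 as measured, but the SC contig lay below its population's median contig. The contig named tick legumain read 134 and 108 RPKM in SD, 0.807-fold (0.684 to 0.955), and 36.5 and 50.2 RPKM in SC, 1.38-fold (1.15 to 1.65). Relative to the median SC contig the SC ratio was 1.05 (0.876 to 1.25), so that its interval no longer excluded 1.

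**Figure D3:**
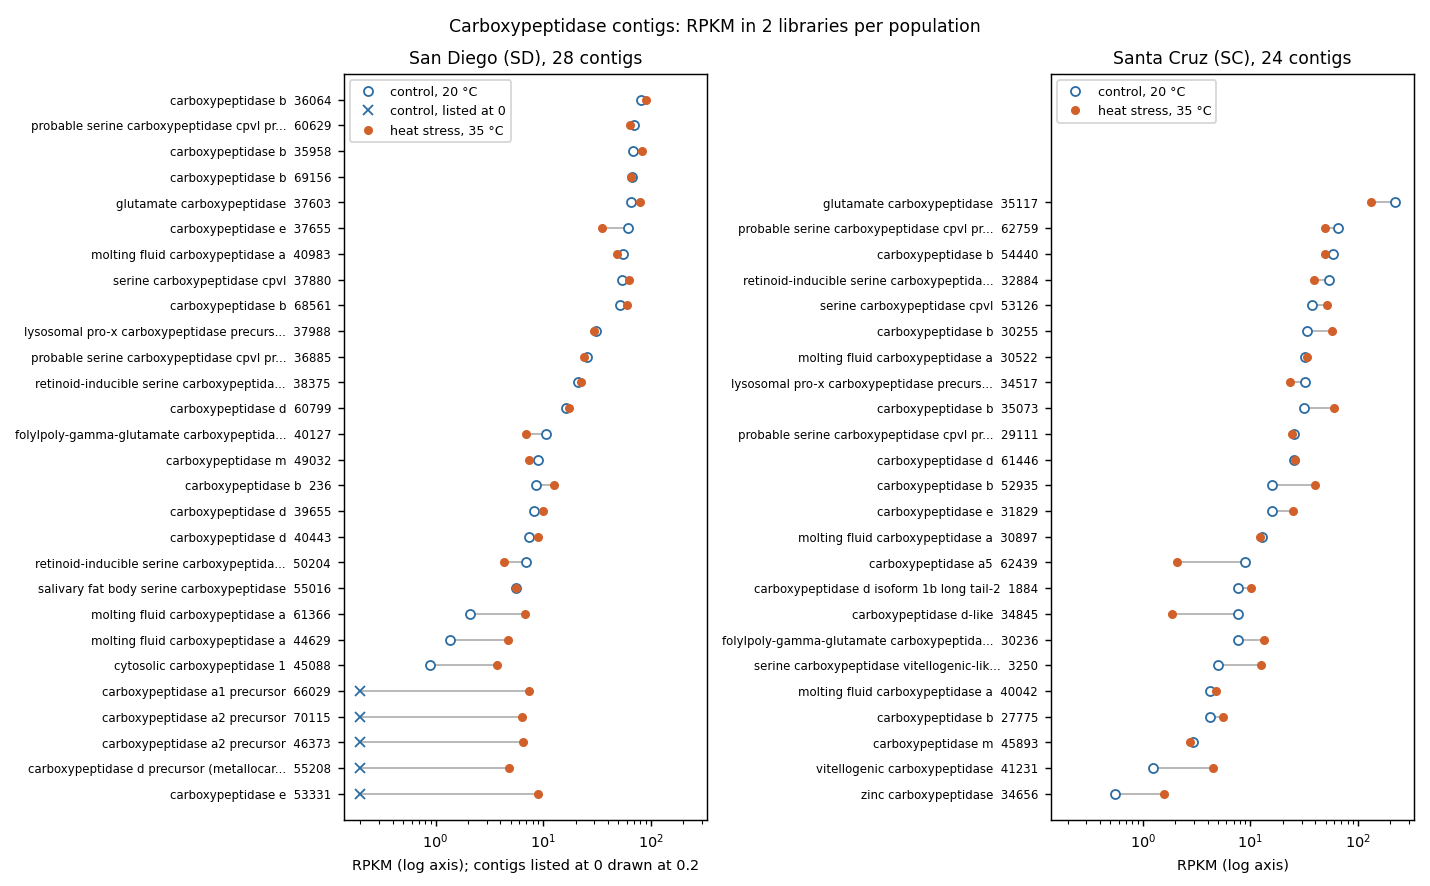
RPKM (log axis) of each carboxypeptidase contig in the control (open circles) and heat stress (filled circles) library, with crosses placed at 0.2 for the 5 SD contigs listed at 0 in the control. The SD contigs at 0 read between 4.80 and 9.02 RPKM under heat stress, and the SC glutamate carboxypeptidase lies farthest right with 223 and 131 RPKM.

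Among the metallocarboxypeptidases, the class by name that holds the digestive A and B types, all 5 SD contigs named carboxypeptidase B lay between 0.979- and 1.46-fold. The 2 highest read 81.9 and 91.0 RPKM (SD_Contig36064, 1.11, 0.954 to 1.30) and 68.1 and 83.2 RPKM (SD_Contig35958, 1.22, 1.04 to 1.45). Their summed RPKM was 278 in the control and 312 under heat stress. By its interval 1 of the 5 was higher and 0 lower, beside 7.13% and 9.43% of all SD contigs.

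The 5 SC carboxypeptidase B contigs summed to 144 and 211 RPKM, with 3 higher by their interval and 0 lower, beside 32.5% and 17.2% of all SC contigs. Relative to the median contig 3 were higher and 1 lower, beside 18.8% and 27.9%. SCN_Contig52935 was highest in ratio, from 15.9 to 39.5 RPKM (2.48, 1.90 to 3.28), or 1.89 (1.44 to 2.49) relative to the median contig. SCN_Contig30255 read 33.3 and 57.1 RPKM (1.72, 1.42 to 2.08) and SCN_Contig35073 read 31.5 and 59.3 RPKM (1.88, 1.53 to 2.33). All 3 also lay above the median contig by their interval and were called higher on recovered reads, though not on RPKM shares. The most abundant of the 5 in the control, SCN_Contig54440, went the other way with 58.9 and 49.9 RPKM (0.847, 0.716 to 1.0), or 0.643 (0.544 to 0.762) relative to the median contig. As with cathepsin L, reads may be shared between these like-named contigs.

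Carboxypeptidase A names outside the molting fluid type were low in both populations. In SD, carboxypeptidase A2 contigs SD_Contig46373 and SD_Contig70115 were listed at 0 in the control and read 6.52 RPKM on 17 reads and 6.30 RPKM on 19 reads under heat stress. Against a floor of 3 control reads these were 1.98-fold and 2.21-fold higher, and the lower ends of their exact intervals, which also take in the error of the reads under heat stress, were 1.44 and 1.63. Carboxypeptidase A1 (SD_Contig66029) read 0 and 7.46 RPKM on 3 reads, at which depth no difference was detectable. In SC the only carboxypeptidase A outside the molting fluid type, A5 (SCN_Contig62439), read 8.90 and 2.09 RPKM on 14 and 5 reads (0.235, 0.0663 to 0.691).

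Altogether 5 SD members, all of them carboxypeptidases, were listed at 0 in the control, 7.46% of the members beside 2.85% of all SD contigs, and 0 SC members were. The other 2 were a carboxypeptidase E (SD_Contig53331), 9.02 RPKM on 22 reads and 2.56-fold higher against the floor (lower end of the interval 1.91), and a carboxypeptidase D precursor (SD_Contig55208), 4.80 RPKM on 13 reads and 1.51-fold higher against the floor (1.06). For these 2 and both carboxypeptidase A2 contigs the fit of the reads could arise by chance (0.428 to 0.575). Their reads, bounds and intervals are therefore uncertain. The SD control was the shallowest library and 577 of its contigs were listed at 0 against 5 of the SD heat stress library. The part of depth in these values was not tested.

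Molting fluid carboxypeptidase A, which in insects digests the old cuticle, was on 3 contigs in each population. The abundant SD contig (SD_Contig40983) read 55.1 and 48.7 RPKM (0.884, 0.727 to 1.08), and the abundant SC contig (SCN_Contig30522) read 32.1 and 33.5 RPKM (1.04, 0.839 to 1.30). The low SD contigs SD_Contig61366 and SD_Contig44629 read 2.09 and 6.81 RPKM and 1.35 and 4.70 RPKM, on 3 and 2 control reads, with ratios of 3.26 (1.01 to 16.7) and 3.49 (0.847 to 30.8). The interval of the abundant contig included 1 in both populations. SCN_Contig30522 was lower relative to the median SC contig, at 0.791 (0.637 to 0.986), as was a second contig, SCN_Contig30897, at 0.727 (0.572 to 0.926). These values stand beside the higher cuticle names in SD and the lower ones in SC given above, whose part in them was not tested.

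Carboxypeptidases with roles outside digestion held some of the clearest lower values. Carboxypeptidase E, a prohormone-processing enzyme, was on SD_Contig37655 with 61.8 and 35.5 RPKM (0.574, 0.482 to 0.684), the lowest ratio by the upper end of its interval among SD members, and was called lower on recovered reads. Its SC namesake (SCN_Contig31829) read 15.8 and 24.9 RPKM (1.58, 1.23 to 2.03), which relative to the median contig was 1.20 (0.937 to 1.54). Carboxypeptidase E was on 2 SD contigs, 1 of them at 0 in the control as given above, so the populations were not paired for this name. Glutamate carboxypeptidase, which removes C-terminal glutamate, read 223 and 131 RPKM in SC (SCN_Contig35117, 0.588, 0.541 to 0.638) and was called lower there on recovered reads, while in SD it read 65.7 and 79.5 RPKM (SD_Contig37603, 1.21, 1.04 to 1.42). Carboxypeptidase D, also a processing enzyme, read 25.4 and 26.0 RPKM on its most covered SC contig (SCN_Contig61446, 1.03, 0.930 to 1.13) and 16.4 and 17.5 RPKM on its highest SD contig (SD_Contig60799, 1.06, 0.846 to 1.35).

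Over the class of metallocarboxypeptidases the SD median log2 fold change was 0.23 (−0.18 to 0.55) over the 16 of 21 contigs above 0 in both libraries. Counted over all 21, 7 contigs were higher and 1 lower by their interval, beside 7.13% and 9.43% of all SD contigs. The 7 included SD_Contig46373, SD_Contig70115, SD_Contig53331 and SD_Contig55208, listed at 0 in the control, and SD_Contig61366 on 3 control reads. The SC median was 0.17 (−0.07 to 0.78) over 17 contigs, 5 higher and 2 lower, beside 32.5% and 17.2% of all SC contigs. Relative to the median contig the SC median was −0.22, with 3 higher and 7 lower, beside 18.8% and 27.9% of all SC contigs. The class also held folylpoly-gamma-glutamate carboxypeptidase, which removes glutamate from folates, with 10.7 and 6.87 RPKM in SD and 7.63 and 13.3 RPKM in SC.

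Serine carboxypeptidases, lysosomal enzymes for the most part, were on 7 contigs per population. In SD none excluded 1 by its interval, where 7.13% of all SD contigs were higher and 9.43% lower. The 2 highest, both named for CPVL (vitellogenic-like carboxypeptidase), read 69.8 and 64.2 RPKM (SD_Contig60629, 0.920, 0.787 to 1.08) and 53.5 and 63.1 RPKM (SD_Contig37880, 1.18, 0.982 to 1.42). Relative to the median contig 4 SC contigs were lower and 0 higher, beside 27.9% and 18.8% of all SC contigs. Unscaled, 3 were lower and 1 higher in SC, beside 17.2% and 32.5%. The lower ones were a CPVL precursor with 65.2 and 49.2 RPKM (SCN_Contig62759, 0.754, 0.647 to 0.880), a retinoid-inducible serine carboxypeptidase with 53.7 and 38.7 RPKM (SCN_Contig32884, 0.720, 0.595 to 0.871) and lysosomal pro-X carboxypeptidase, which cuts after proline, with 32.1 and 23.2 RPKM (SCN_Contig34517, 0.721, 0.589 to 0.884). The higher one was serine carboxypeptidase CPVL (SCN_Contig53126), 37.3 and 51.7 RPKM (1.39, 1.16 to 1.67), which relative to the median contig was 1.05 (0.879 to 1.27). The contig named vitellogenic carboxypeptidase, SCN_Contig41231, read 1.24 and 4.5 RPKM on 2 and 11 reads (3.62, 0.790 to 33.6), too few to separate the libraries.

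**Figure D4:**
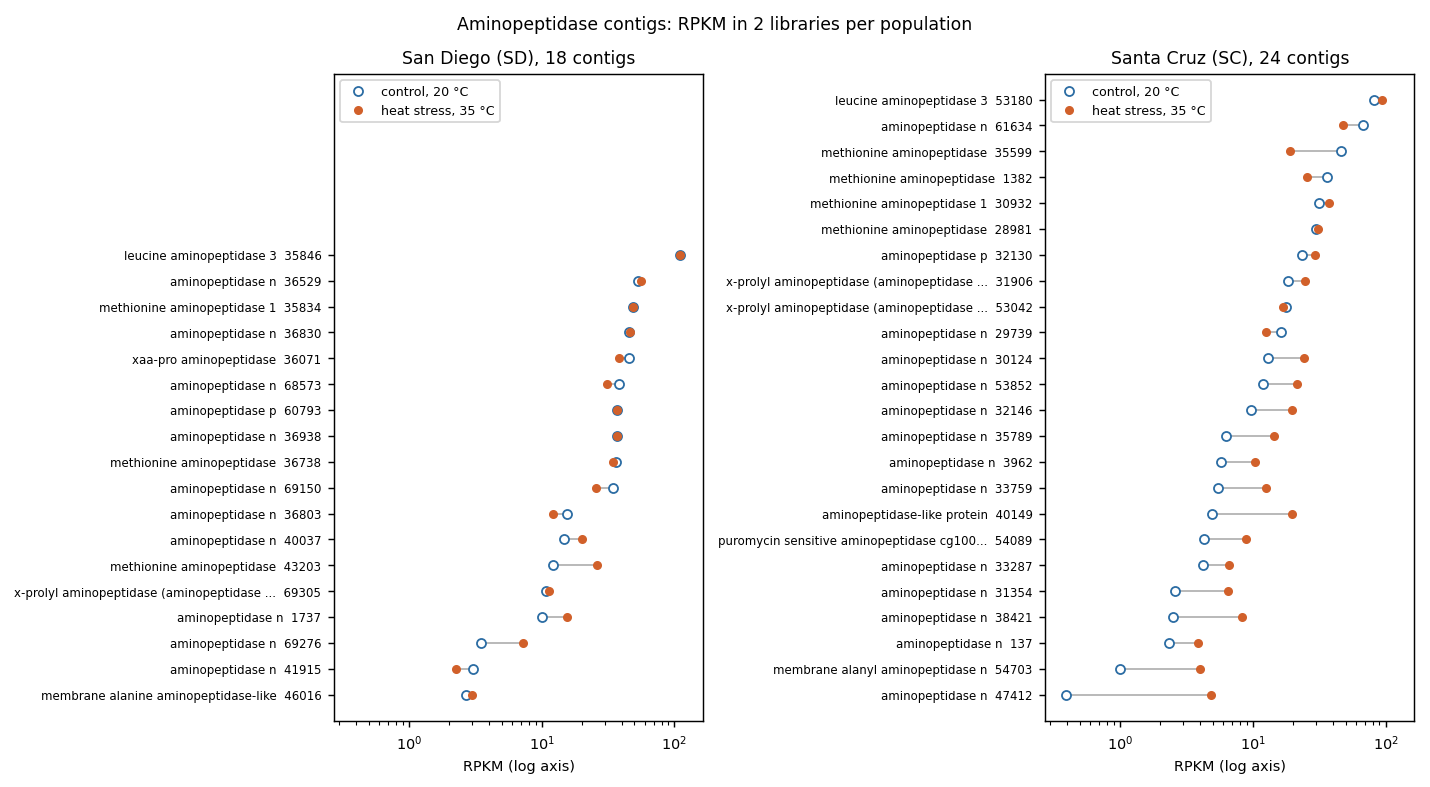
RPKM (log axis) of each aminopeptidase contig in the control (open circles) and heat stress (filled circles) library of SD and SC. Below 20 RPKM nearly every SC aminopeptidase N contig lies to the right of its control, while the most abundant, at 67.9 RPKM in the control, lies to the left, and the SD pairs are mixed.

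Aminopeptidase N, a membrane-bound zinc enzyme of the arthropod midgut, was the most numerous name. The 10 SD contigs had a median log2 fold change of 0.01 (−0.41 to 0.64) and summed to 256 and 254 RPKM. By their interval 0 were higher and 1 lower, beside 7.13% and 9.43% of all SD contigs. The lower one, SD_Contig69150, read 34.7 and 25.7 RPKM (0.741, 0.585 to 0.943). The highest, SD_Contig36529, read 53.5 and 56.3 RPKM (1.05, 0.849 to 1.31).

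The 13 SC aminopeptidase N contigs had a median log2 fold change of 0.92 (0.63 to 1.30), or 0.52 relative to the median contig, and summed to 149 and 193 RPKM. Ratios were above 1 on 11 of them, with 6 higher and 1 lower by their interval, where 32.5% of all SC contigs were higher and 17.2% lower. Relative to the median contig 5 were higher and 2 lower, where 18.8% and 27.9% of all contigs were. SCN_Contig30124, with 13.0 and 24.5 RPKM (1.89, 1.57 to 2.30), was called higher on recovered reads. SCN_Contig32146 read 9.74 and 19.6 RPKM (2.01, 1.39 to 2.96). The most abundant, SCN_Contig61634, was lower with 67.9 and 47.5 RPKM (0.7, 0.632 to 0.775) and was called so on recovered reads. The SC contig with the largest ratio, SCN_Contig47412, read 0.391 and 4.89 RPKM on 1 and 19 reads (12.5, 1.99 to 520), which fixes its size poorly, and with 1 RPKM added to each library the ratio was 4.23. The median control level of the 13 was 5.73 RPKM, in the range where the median of all SC contigs was also high.

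Aside from aminopeptidase N and the methionine aminopeptidases, aminopeptidases above 20 RPKM in the control had ratios between 0.834 and 1.24. Leucine aminopeptidase 3, a cytosolic enzyme, was the highest in both populations, with 110 RPKM in each SD library (SD_Contig35846, 0.996, 0.889 to 1.12) and 82.4 and 93.3 RPKM in SC (SCN_Contig53180, 1.13, 1.01 to 1.27, or 0.860 relative to the median contig). Aminopeptidase P, which releases residues ahead of proline, read 37.0 and 36.9 RPKM in SD (SD_Contig60793, 0.997, 0.832 to 1.20) and 23.7 and 29.5 RPKM in SC (SCN_Contig32130, 1.24, 1.03 to 1.5, or 0.945 relative to the median contig). Both SC ratios thus went from above to below 1 with the scaling. The scaled interval excluded 1 for leucine aminopeptidase 3 (0.769 to 0.964) but not for aminopeptidase P (0.784 to 1.14). Xaa-Pro aminopeptidase (SD_Contig36071), named for the same cut as aminopeptidase P, read 45.6 and 38.1 RPKM in SD (0.834, 0.702 to 0.996). Puromycin-sensitive aminopeptidase (SCN_Contig54089), a cytosolic enzyme related to aminopeptidase N, read 4.32 and 8.86 RPKM on 17 and 53 reads in SC (2.05, 1.17 to 3.78). Relative to the median contig its ratio was 1.56 (0.888 to 2.87), an interval that takes in 1.

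Methionine aminopeptidases were on 3 SD and 4 SC contigs. In SC, SCN_Contig35599 read 46.5 and 19.2 RPKM (0.413, 0.326 to 0.522), the lowest ratio among SC members by the upper end of its interval, and was called lower on recovered reads. SCN_Contig1382 read 36.1 and 25.5 RPKM (0.707, 0.547 to 0.915), while SCN_Contig28981 with 29.8 and 31.0 RPKM and methionine aminopeptidase 1 (SCN_Contig30932) with 31.4 and 37.6 RPKM had intervals that included 1. In SD methionine aminopeptidase 1 (SD_Contig35834) read 48.5 and 49.1 RPKM and SD_Contig36738 read 36.1 and 34.2 RPKM. The low SD contig SD_Contig43203 read 12.1 and 26.1 RPKM on 23 and 142 reads (2.15, 1.38 to 3.51). The class therefore held contigs on both sides of 1 in both populations. Relative to the median contig, though, 3 of the 4 SC contigs were lower by their interval and 0 higher, beside 27.9% and 18.8% of all SC contigs.

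In both populations 15 product names were carried by 1 contig alone, and 14 of these held at least 50 reads in each population. The populations were mapped to separate assemblies, so values were set side by side without a test. Cathepsin B was the 1 name lower by its interval in both, with 0.832 in SD and 0.846 in SC. Glutamate carboxypeptidase and tick legumain were the 2 names whose intervals excluded 1 in opposite directions. Their control levels differed between SD and SC, 65.7 and 223 RPKM for the first and 134 and 36.5 RPKM for the second. Whether the same name marks the same gene in these 2 cases was not tested. For Atg4b, the cysteine protease that processes Atg8 in autophagy, the ratios were 0.783 (0.575 to 1.08) in SD and 0.805 (0.659 to 0.983) in SC. C1A cysteine protease precursor read 0.809 and 0.810 with intervals from below 0.5 to 1.40 and 1.42, and cysteine proteinase CG12163 read 0.985 (0.768 to 1.28) in SD and 1.35 (1.06 to 1.72) in SC, where it was 1.02 (0.806 to 1.31) relative to the median contig. The name cathepsin L precursor was on contigs of very different levels, 78.0 RPKM in the SD control (SD_Contig47899) and 603 RPKM in the SC control. Whether these 2 contigs are the same gene was likewise not tested. Cathepsin L-associated protein read 36.9 and 32.2 RPKM in SD (SD_Contig36536, 0.872, 0.649 to 1.18), beside the higher SC values above.

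**Figure D5:**
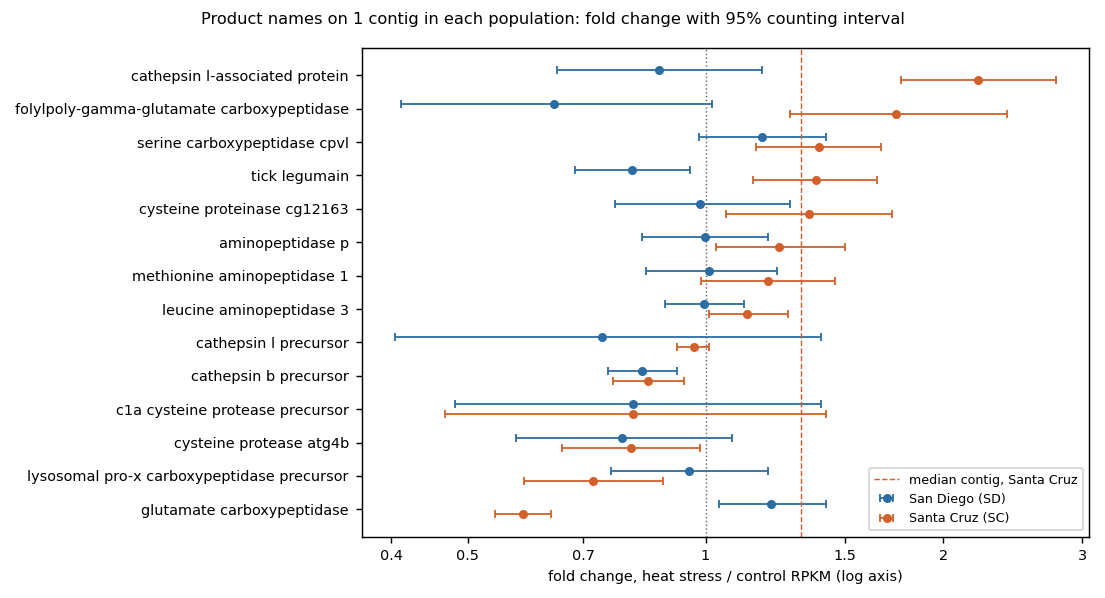
Fold change (heat stress over control RPKM, log axis) with exact 95% counting intervals for the 14 product names on 1 contig in each population with at least 50 reads, SD in blue and SC in orange, with the SC median contig (1.32) as a dashed line. The SD intervals mostly include 1, glutamate carboxypeptidase and tick legumain lie on opposite sides of 1, and cathepsin B lies below 1 in both populations.

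Other names tied to digestion and the lysosome were counted beside the members, by words in the product name alone. Lysosome names held lysosom, saposin, niemann, lamp or vacuolar. Carbohydrate names held amylase, maltase, glucosidase, cellulase, endoglucanase, mannosidase, galactosidase or hexosaminidase. Where the products of these contigs act was not measured. Over all contigs Kal's Z-test on RPKM shares called 1.35% higher and 1.24% lower in SD and 3.05% and 2.49% in SC. The median log2 fold changes of all contigs were −0.03 and 0.40. Of the trypsin-like serine proteases, which share the gut with cathepsins in crustaceans, 1 of 85 was called higher and 1 lower in SD and 2 of 83 higher and 0 lower in SC, with median log2 fold changes of 0.06 and 0.02. Lipases had 0 calls among 21 contigs in each population, with medians of 0.02 and 0.01. Carbohydrate names had 0 calls among 51 SD contigs (median −0.04) and 1 higher and 0 lower among 55 SC contigs (median 0.40). Lysosome names had 1 higher and 0 lower among 78 SD contigs (median 0.07) and 0 calls among 92 SC contigs (median 0.37). Protease inhibitors, which include the cystatins that block cathepsins and the serpins, had 1 higher and 1 lower among 27 SD contigs (median 0.07) and 0 higher and 4 lower among 28 SC contigs (median −0.63). Apart from these inhibitors, whose summed SC RPKM was 4415 in the control and 2542 under heat stress, the lists had at most 2 calls in a direction. Relative to the median SC contig, the SC medians were −0.38 for trypsin-like proteases and for lipases. On that scale they were 0.00 for carbohydrate names, −0.02 for lysosome names and −1.03 for inhibitors.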

How the data were processed

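Illumina GA-II reads of 4 libraries, 1 per population and treatment, were trimmed, assembled together with earlier pyrosequencing reads into 1 assembly per population and mapped to it by the authors with CLC Genomics Workbench v4.5, and contigs were named by their best BLASTX hit. The deposited value is RPKM per contig, without replicates. Kal's Z-test compared each contig's share of the library's summed RPKM (Bonferroni adjusted p of at most 0.10, over 20278 SD and 20931 SC contigs). The library totals and contig lengths that turn both RPKM values of a contig into whole reads were searched for; the fit was unlikely to arise by chance (under 0.05) for 87.6% of SD and 100% of SC contigs, and 58 of the 67 SD members. Recovered reads are minima. Intervals are exact (Clopper-Pearson, 95%); medians carry binomial intervals. Contigs listed at 0 were set against a floor of 3 reads. The median-contig scale divides heat stress RPKM by the median ratio of all contigs (0.977 in SD, 1.32 in SC).

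Named contigs, 27 in SD and 25 in SC by rule, were called members, the 2 highest of each enzyme class, the 3 clearest changes in each direction and the names on 1 contig per population; other members were named after their values were seen. The members, classes and lists were chosen with earlier results of these data known. A contig has no sequence or genome position in the files used here, and 0 member names matched a symbol among the 16893 genes of the reference table. Read recovery, calls and intervals were tested on simulated data. Alternatives were scaling by the median ratio, the test on recovered reads, Benjamini-Hochberg adjustment at 0.05, filters on reads and RPKM, and 1 RPKM added. Analyses used python 3.11.15, numpy 2.4.6, pandas 2.3.3 and scipy 1.17.1.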

Additional observations from a re-analysis of the deposited data

Results flagged for a closer look

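The fold changes of 2 product names on 1 contig per population lay on opposite sides of 1 in SD and SC, with both intervals excluding 1. Glutamate carboxypeptidase was 1.21-fold (1.04 to 1.42) in SD and 0.588-fold (0.541 to 0.638) in SC. Tick legumain was 0.807-fold (0.684 to 0.955) in SD and 1.38-fold (1.15 to 1.65) in SC, or 1.05-fold (0.876 to 1.25) relative to the median SC contig. With 1 library per condition and separate assemblies the difference between the populations was not tested for either name, and these names were 2 of 14 looked at. The control levels of SD and SC were 65.7 and 223 RPKM for glutamate carboxypeptidase and 134 and 36.5 RPKM for tick legumain. Whether each name marks the same gene in both populations was not tested.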

How the results depend on the processing

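With 1 library per condition, no alternative adds a replicate check. Kal's Z-test on recovered reads called 1 SD member higher and 1 lower, and 6 SC members higher and 7 lower. Benjamini-Hochberg adjustment at 0.05 called 1 higher and 0 lower in SD and 9 higher and 6 lower in SC. Dividing heat stress RPKM by the median ratio gave 6 SC members called lower in place of 1, turned the SC median log2 fold change from 0.26 to −0.14, and gave 8 SC members at least 2-fold higher and 7 lower in place of 17 and 3. With intervals clear of 1, members at least 2-fold higher numbered 4 in SD and 9 in SC, and with at least 10 control reads 1 and 7. The 2-fold counts thus rest largely on contigs with few reads. Filters on more than 10 reads or on 1 RPKM and the addition of 1 RPKM changed no count by over 1.5 times, though the latter took aminopeptidase N SCN_Contig47412 from 12.5-fold to 4.23-fold. Of 25 named SC contigs, the median scaling left 3 within their unscaled interval, moved 20 outside it and reversed 2 whose interval had excluded 1. It took 5 from above to below 1, and for 2 of these the unscaled interval excluded 1 (aminopeptidase P to 0.945 and leucine aminopeptidase 3 to 0.860). The others were cathepsin D (0.809), methionine aminopeptidase 1 (0.910) and a papain family protease (0.764). The 24 named SD contigs with a fold stayed within their interval. No paired analysis was possible because each condition has 1 library and the labels give no replicate numbers. Depth limits the low contigs: 15 SD and 17 SC members had under 10 control reads.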
